A study of Mus musculus with 4 samples.

Results

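The 10 genes described here encode actin and the proteins that store, recycle and branch it: Tmsb4x, Tmsb10, Actb, Actg1, Pfn1, Cfl1, Coro1a, Arpc1b, Arpc2 and Arpc3. They were chosen by name from 25724 gene columns of a single-cell table of mouse colon CD4 T cells. The labels give 4 samples in 1 group, named Btheta_colon, of male B6 mice aged 6 weeks. Cells of the colon lamina propria were released with collagenase/dispase, sorted as CD45+ TCRb+ CD4+ and profiled by inDrops, a droplet method that captures the poly(A) end of transcripts. The barcodes carry no sample, so the 4 samples cannot be separated. The table was read as 1 sample, and no comparison has a replicate check or a test. Of 1985 barcodes, 1050 passed a filter of 500 counts, 200 genes and less than 20% mitochondrial (mt-) counts, and these are the cells below.

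Actin exists as free monomers and as filaments, and T cells remodel it when they crawl through tissue and when they form contacts with antigen-presenting cells. Beta-thymosins bind monomers and hold them in reserve, profilin delivers monomers to growing filament ends, and cofilin severs old filaments. The Arp2/3 complex starts new filaments as branches on existing ones, and coronins bind filaments and act together with cofilin and Arp2/3.

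The thymosins and the actins are each a pair of related genes, and their coding letters are set side by side. Because the libraries capture transcript ends, reads need not fall in these stretches, and the letters do not show how counts were told apart. The coding sequences of Tmsb4x and Tmsb10 (135 bases each, stop codon included) are given whole, and those of Actb and Actg1 over their first 60 bases. They were read 5′ to 3′ from GENCODE vM21 transcripts on GRCm38, and capitals mark the bases that differ within each pair.
Tmsb4x: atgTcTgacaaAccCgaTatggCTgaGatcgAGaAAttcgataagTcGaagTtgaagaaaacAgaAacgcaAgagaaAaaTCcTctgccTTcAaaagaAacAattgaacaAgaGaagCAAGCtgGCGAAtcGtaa
Tmsb10: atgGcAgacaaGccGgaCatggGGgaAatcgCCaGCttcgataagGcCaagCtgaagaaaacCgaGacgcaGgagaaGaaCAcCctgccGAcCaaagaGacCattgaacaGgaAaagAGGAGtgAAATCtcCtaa
Actb: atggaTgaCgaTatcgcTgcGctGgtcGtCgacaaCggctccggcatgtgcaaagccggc
Actg1: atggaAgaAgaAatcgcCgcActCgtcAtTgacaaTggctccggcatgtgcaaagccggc
The thymosin sequences differed at 40 of 135 positions and were 70.4% identical. The actin coding sequences differed at 128 of 1128 positions and were 88.7% identical, and 120 of the 128 differences lay at the last base of a codon. Of the 60 bases shown for the actins, 9 differed.

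All 10 genes are annotated as protein coding on mm10 (GENCODE vM21). The thymosin genes lie at chrX:167207093-167209315 (Tmsb4x) and chr6:72957347-72958748 (Tmsb10), and the actin genes at chr5:142903115-142906754 (Actb) and chr11:120345690-120348542 (Actg1). Pfn1 lies at chr11:70651850-70654644, Cfl1 at chr19:5490455-5495201 and Coro1a at chr7:126699773-126707787. The Arp2/3 subunit genes lie at chr5:145114215-145130705 (Arpc1b), chr1:74236084-74268209 (Arpc2) and chr5:122391878-122414184 (Arpc3). Coro1a overlaps Bola2 on the opposite strand (149 counts) and Arpc1b overlaps Pdap1 (189 counts), and the sources used here do not say whether the counting used strand. The genome also holds processed copies of several of these genes, and nor do they say how reads shared with those were counted.

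The kept cells held 1549040 counts, with a median of 1235.5 per cell (range 501 to 13023) and a median of 612 genes. The T cell marker list (Cd3e, Cd3d, Cd3g, Cd4, Trac, Trbc1, Trbc2, Cd2, Lck) had all 9 genes detected, and 97.7% of cells held a count of at least 1 of them. Levels are given as CPM, the counts of a gene per 1000000 counts of the pooled cells, with an exact Poisson 95% interval, and 3 counts over all cells correspond to 1.94 CPM. Intervals cover counting error only: the variance of single-cell counts was 1.29 (Arpc3) to 5.65 (Tmsb4x) times that of Poisson counts at the same depth. For the sum of the 10 genes it was 8.39 times.

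The 10 genes together took 65201 counts, 4.21% of all counts in the cells. Tmsb4x was the most abundant of all genes in the table at 18491.5 CPM (18278 to 18707) and was detected in 99.6% of cells. Its paralog Tmsb10 stood at 1638 CPM (1575 to 1703) and was detected in 78.9% of cells, so Tmsb10 made up 8.14% (exact binomial 95% interval 7.84 to 8.45) of thymosin counts. Actb ranked 7 among all genes at 8534 CPM (98.1% of cells), and Actg1, the other cytoplasmic actin, ranked 8 at 6489 CPM (93.0% of cells). Actg1 made up 43.2% (42.6 to 43.8) of the counts of both actins.

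The monomer and turnover factors were lower by CPM. Cfl1, the cofilin of non-muscle cells, reached 1990 CPM and Pfn1, profilin 1, reached 1926 CPM, with intervals that overlapped (1920 to 2061 and 1858 to 1997). Coro1a, the coronin of blood cells, reached 1072 CPM in 66.4% of cells. Among the Arp2/3 subunits, Arpc2 (793 CPM) and Arpc1b (759 CPM) had overlapping intervals, and Arpc3 was lowest at 398 CPM in 37.8% of cells. CPM carries no correction for gene length. Per kilobase of annotated exon, Tmsb4x stayed first (13488 CPM per kb), before Actb (3186), Actg1 (2441), Tmsb10 (1284), Pfn1 (801) and Cfl1 (700). Tmsb10 thereby moved from place 6 to place 4. Arpc2 (390) and Coro1a (385) lay next to each other, as did Arpc1b (148) and Arpc3 (144). Because the libraries capture transcript ends, counts need not scale with exon length. The correction by exon length may therefore itself distort this order.

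Single cells spread widely around these levels. In the middle 50% of cells, Tmsb4x lay between 12940.5 and 23748 CPM (median 18151), Actb between 4477 and 10886 (median 7397) and Actg1 between 2631 and 7903 (median 5030). Tmsb10 lay between 558 and 2435 CPM (median 1380), and its median cell held 2 counts. With all cells thinned to 500 counts, the highest rank correlation between any pair of the genes over the 1050 cells was that of Actb and Actg1 (Spearman correlation 0.23), and that of the thymosin pair was -0.02. These are descriptions over cells that share 1 table and 1 depth, and most counts per cell behind them are small.

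Cells were then gated on detection of Foxp3, the transcription factor of regulatory T cells; Gata3, a transcription factor of type 2 helper T cells and of a group of tissue regulatory T cells; Il10, an immunoregulatory cytokine; and at least 1 of Ccr7, Tcf7 and Lef1, a lymph node homing receptor and a pair of transcription factors typical of naive and central memory T cells. Foxp3 was detected in 332 cells (31.6%), Gata3 in 572 (54.5%), Il10 in 266 (25.3%) and Ccr7, Tcf7 or Lef1 in 198 (18.9%: Ccr7 in 32, Tcf7 in 119, Lef1 in 87). The gates overlap: 146 cells held both Foxp3 and Il10, and 60.5% of the cells with Foxp3 also held Gata3. The sides of different gates therefore share cells and are given side by side. A cell without a count can still express a gene, and gated cells were deeper: median counts were 1304.5 with and 1215 without Foxp3, 1336 and 1161 for Gata3, 1314 and 1212 for Il10, and 1371 and 1213.5 for Ccr7, Tcf7 or Lef1.

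Among cells with a Foxp3 count, Actg1 was higher and Tmsb10 lower than among cells without, while Tmsb4x and Actb were slightly higher. Tmsb10 measured 1389 CPM with and 1762 CPM without Foxp3, a log2 ratio of -0.34 (exact conditional 95% interval -0.47 to -0.22). Tmsb4x, the larger thymosin, went the other way at 20038 against 17722 CPM (log2 0.18, 0.14 to 0.21). The Tmsb10 share of thymosin counts was accordingly 6.48% (6.03 to 6.96) with and 9.05% (8.65 to 9.45) without Foxp3. Actg1 measured 7834 against 5819 CPM (log2 0.43, 0.37 to 0.49), and Actb 9313 against 8147 CPM (log2 0.19, 0.14 to 0.24). Actg1 was thus the actin with the larger ratio, and its share of actin counts was 45.7% with and 41.7% without Foxp3. Pfn1 followed at 2110 against 1835 CPM (log2 0.20, 0.09 to 0.31). The intervals of Cfl1 (log2 0.04), Coro1a (0.10), Arpc1b (0.06), Arpc2 (0.07) and Arpc3 (-0.12) included 0, so any difference in these was not detectable at this depth. Of the 10 genes, 1 (Actg1) was at least 25% higher with Foxp3, against 15.7% of the 414 genes with at least 500 counts, and 1 (Tmsb10) was at least 20% lower, against 9.18%. Both thresholds are the same ratio, read in either direction. A share of 1 in 10 is near both background shares, so these counts do not set the 10 genes apart. With every cell thinned to 500 counts and gated on those, Actg1 (log2 0.20, share difference 1.94 percentage points), Actb (0.08), Pfn1 (0.01) and Tmsb10 (-0.27) all lay under the threshold and Arpc3 (-0.65) passed it. Tmsb10 also lay under it within bins of depth (-0.32) and without cells of other-type markers (-0.28). Summed over the 10 genes, the level was 45813 CPM with and 40239.5 CPM without Foxp3 (log2 0.19, 0.16 to 0.21).

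**Figure D1:**
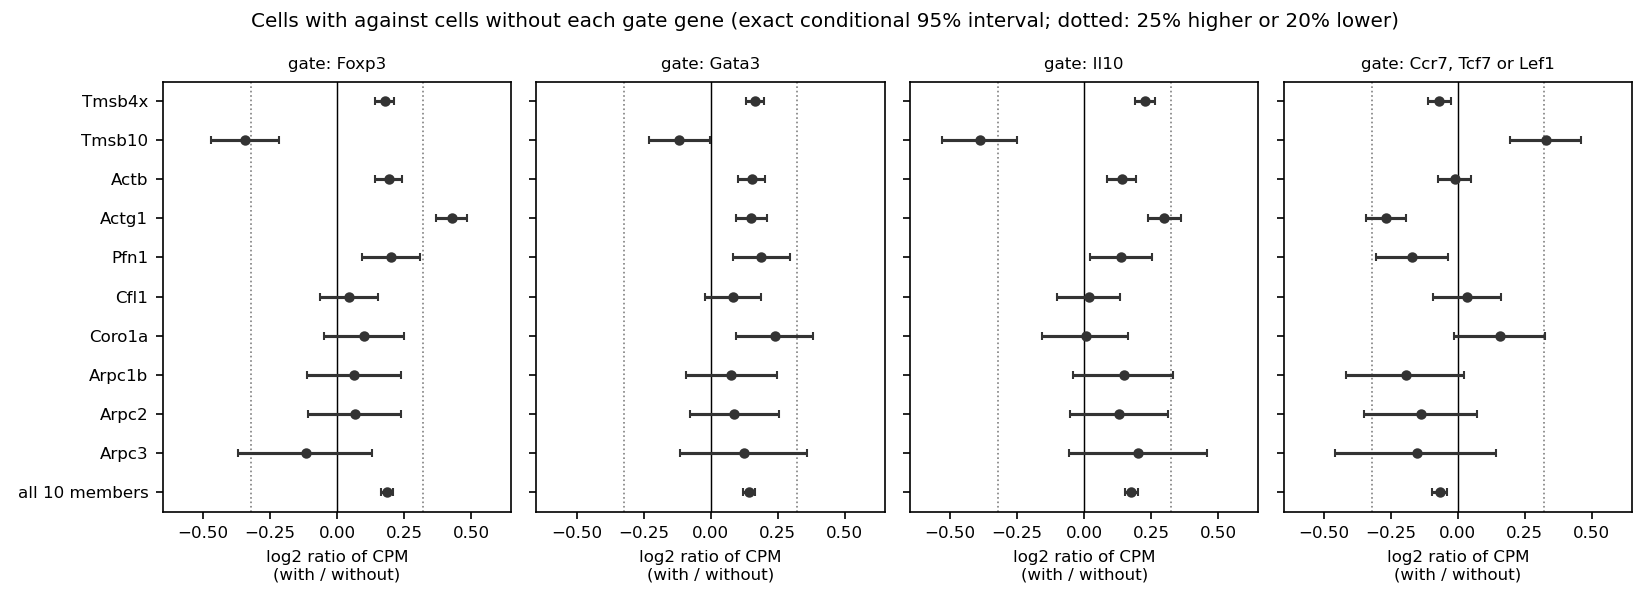
Log2 ratio of CPM in cells with a count of the gate gene over cells without, for each of the 10 genes and their sum (points, with exact conditional 95% intervals; dotted lines mark 25% higher and 20% lower). Tmsb10 lies at -0.34 for Foxp3, -0.39 for Il10 and 0.33 for Ccr7, Tcf7 or Lef1, on the opposite side of 0 from Actg1 in each of the panels.

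Cells with an Il10 count showed a like pair of values, and 54.9% of them also held Foxp3. Tmsb10 measured 1332 CPM with and 1746 CPM without Il10 (log2 -0.39, -0.53 to -0.25), and its thymosin share was 6.05% against 8.98%. Tmsb4x measured 20708 against 17710 CPM (log2 0.23, 0.19 to 0.26) and Actg1 7532 against 6121 CPM (log2 0.30, 0.24 to 0.36). Actb (log2 0.14) and Pfn1 (log2 0.14) had smaller ratios whose intervals left out 0, and the other 5 intervals included 0. In thinned cells the ratio was 0.002 for Actb and -0.11 for Pfn1. By the same thresholds, 0 of the 10 genes were higher, against 16.2% of abundant genes, and 1 (Tmsb10) was lower, against 14.5%. The sum was 45983 CPM with and 40719 CPM without Il10 (log2 0.18, 0.15 to 0.20).

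The Ccr7, Tcf7 or Lef1 gate gave the opposite arrangement. Tmsb10 measured 1957 CPM with and 1558 CPM without these genes (log2 0.33, 0.20 to 0.46), and its thymosin share was 9.91% against 7.70%. Actg1 measured 5579 against 6718 CPM (log2 -0.27, -0.34 to -0.19), and its actin share was 39.7% against 44.0%, a difference that shrank to -0.81 percentage points in thinned cells. Pfn1 was lower at 1752 against 1970 CPM (log2 -0.17, -0.31 to -0.04). Actb differed by a log2 ratio of -0.01 (-0.07 to 0.05), which ran from -0.26 in thinned cells to 0.07 with ribosomal protein and mitochondrial genes left out of the total. Tmsb4x had a log2 ratio of -0.07, which ran from -0.34 to 0.01 in the same settings. By these thresholds, 1 gene (Tmsb10) was higher, against 11.6% of 415 abundant genes, and 0 of the 10 genes were lower, against 16.1%. Tmsb10 lay under the threshold in 5 of 11 alternatives, with 0.25 as its lowest ratio. The sum was 40540.5 against 42482 CPM (log2 -0.07, -0.10 to -0.04), and it ran from -0.24 in thinned cells to 0.01 without ribosomal protein and mitochondrial genes.

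The paralogs separated least in the Gata3 gate of the 4 gates. Actb and Actg1 had the same log2 ratio of 0.15, and the Actg1 share was 43.2% on both sides. Tmsb10 measured 1581 CPM with and 1714 CPM without Gata3 (log2 -0.12, -0.23 to -0.003), and its thymosin share was 7.54% against 9.02%. Tmsb4x measured 19392 against 17301 CPM (log2 0.16, 0.13 to 0.20). Coro1a measured 1148 against 973 CPM (log2 0.24, 0.10 to 0.38), the highest of the 10 ratios in this gate. None of the 10 passed the thresholds: 0 were higher, against 11.1% of abundant genes, and 0 were lower, against 3.14%. The sum was 43897 with and 39705 CPM without Gata3 (log2 0.14, 0.12 to 0.17). That sum was 0.04 without cells that held markers of other cell types and -0.003 with every cell thinned to 500 counts and gated on those, the Coro1a ratio was 0.14 and 0.04 in the same settings, and the Tmsb4x ratio was 0.003 and 0.05.

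To separate the overlapping gates, each cell was put in 1 of 5 classes, in this order: any Foxp3 count (332 cells), Il10 without Foxp3 (120), Ccr7, Tcf7 or Lef1 without those (154), Gata3 alone of these genes (227), and none of them (217). They are called by the gene that placed them. A few cells had to be looked at first. Epithelial markers (Krt8, Krt19, Krt20, Muc2, Car1, Fabp2, Guca2a, Klk1; 8 of 9 listed genes are in the table) summed to 8353 CPM in cells with none of the gate genes and to 12.8 to 35.0 CPM in the other classes. In all, 7 cells held at least 10 epithelial marker counts, 6 of them with none of the gate genes and 1 with a Foxp3 count, and their median depth was 7500 counts. In these 7 cells Coro1a had 0 of 53869 counts, which allows up to 55.7 CPM, Tmsb4x stood at 1448 CPM, and Actg1 (5383 CPM) exceeded Actb (2803 CPM). Without the 6 cells, Tmsb4x in cells with none of the gate genes was 17545 CPM in place of 15151, and the sum of the 10 genes was 40608 CPM in place of 36503. Myeloid markers ran from 367 to 735 CPM, B and plasma cell markers from 307 to 513 CPM, and CD8, gamma delta, ILC or NK markers from 11.5 to 59.7 CPM across the classes. Stromal and endothelial markers were also highest in that class, at 1854 CPM against 64.1 to 230 CPM in the others.

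Tmsb10 was highest in the Ccr7, Tcf7 or Lef1 class at 2114 CPM (1932 to 2308), before cells with none of the genes (1848), the Gata3 class (1585), the Il10 class (1458) and the Foxp3 class (1389, 1289 to 1495). Neighbours in this order had overlapping intervals, while the Foxp3 class lay below the Ccr7, Tcf7 or Lef1 class by a log2 difference of 0.61 (0.44 to 0.77). Without the 192 cells that held at least 2 different markers of epithelial, stromal, myeloid or B cells, cells with none of the genes (2132 CPM) and the Ccr7, Tcf7 or Lef1 class (2084 CPM) changed places at the top, and the Foxp3 class stood at 1488 CPM. Tmsb4x formed a high group of the Il10 (20447 CPM), Foxp3 (20038) and Gata3 (19449.5) classes with overlapping intervals, above the Ccr7, Tcf7 or Lef1 class (16778, 16258 to 17311). The Tmsb10 share of thymosin counts was 6.48% in the Foxp3 class, 6.66% in the Il10 class, 7.53% in the Gata3 class, 10.9% in cells with none of the genes and 11.2% (10.3 to 12.2) in the Ccr7, Tcf7 or Lef1 class. The first 3 shares and the last 2 form separate ranges, and both ranges also stood apart without the 192 cells (6.63% to 7.50% and 10.3% to 11.3%).

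By pooled CPM, Actg1 ran in the opposite order. It was highest in the Foxp3 class at 7834 CPM (7594 to 8080), then in the Il10 class (6892), the Gata3 class (5919), cells with none of the genes (5650) and the Ccr7, Tcf7 or Lef1 class (5114, 4829 to 5412). The Foxp3, Il10 and Gata3 classes had intervals apart from each other, while the last 3 levels overlapped with their neighbours. The Foxp3 class exceeded the Ccr7, Tcf7 or Lef1 class by log2 0.62 (0.52 to 0.71), and by 0.61 both within bins of depth and without the 192 cells. Actb spanned less, from 9313 CPM in the Foxp3 class to 7643 CPM in cells with none of the genes (log2 0.29, 0.21 to 0.36). It measured 8101.5 CPM in the Ccr7, Tcf7 or Lef1 class and 8159 CPM in the Gata3 class. Without the 6 epithelial-marker cells, Actb in cells with none of the genes was 8433 CPM, above both of these classes. The Actg1 share of actin counts was 45.7% in the Foxp3 class and 38.7% (37.0 to 40.4) in the Ccr7, Tcf7 or Lef1 class. Genes known to respond to tissue dissociation (11 of 11 listed were detected, Fos and Jun among them) summed to 5594 CPM in the Foxp3 class and 5918 CPM in the Il10 class. They summed to 5489 CPM in the Gata3 class, 4834 CPM in cells with none of the genes and 4274 CPM in the Ccr7, Tcf7 or Lef1 class. Their part in the order of Actg1 was not tested.

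**Figure D2:**
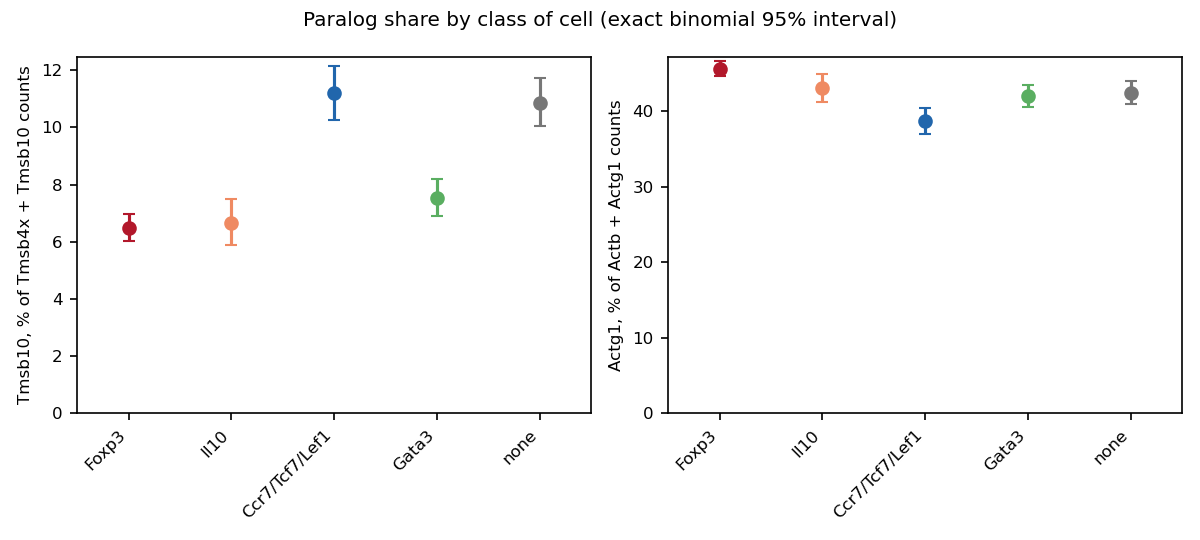
Share of Tmsb10 in the counts of Tmsb4x and Tmsb10 (left, percent) and of Actg1 in the counts of Actb and Actg1 (right, percent) in the 5 classes of cells, with exact binomial 95% intervals. The Tmsb10 share runs from 6.48% in the Foxp3 class to 11.2% in the Ccr7, Tcf7 or Lef1 class, and the Actg1 share is lowest in that class at 38.7%.

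Of the remaining genes, Pfn1 was highest in the Il10 (2167 CPM) and Foxp3 (2110 CPM) classes and measured 1700 CPM in the Ccr7, Tcf7 or Lef1 class. Cfl1 had overlapping intervals between all neighbouring classes, between 1809 and 2097 CPM. Coro1a was lowest in cells with none of the genes at 909 CPM, and stood at 1069 CPM there without the 6 epithelial-marker cells, in which it had no count. Arpc1b, the Arp2/3 subunit form that prevails in blood cells, measured 951 CPM in the Il10 class and 609 CPM in the Ccr7, Tcf7 or Lef1 class (log2 0.64, 0.31 to 0.98). Its relative Arpc1a was sparse beside it, with 36 counts against 402 of Arpc1b in the Foxp3 class. Arpc2, a structural subunit of the complex, had its 5 class levels between 747 and 824 CPM. Arpc3, another structural subunit, was highest in the Il10 class at 536 CPM (433 to 657) and measured 358 CPM in the Ccr7, Tcf7 or Lef1 class. This contrast rests on 93 and 84 counts (log2 0.58, 0.14 to 1.03). It was 0.44 with every cell weighing the same, 0.32 within bins of depth and 0.67 without the 192 cells.

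**Figure D3:**
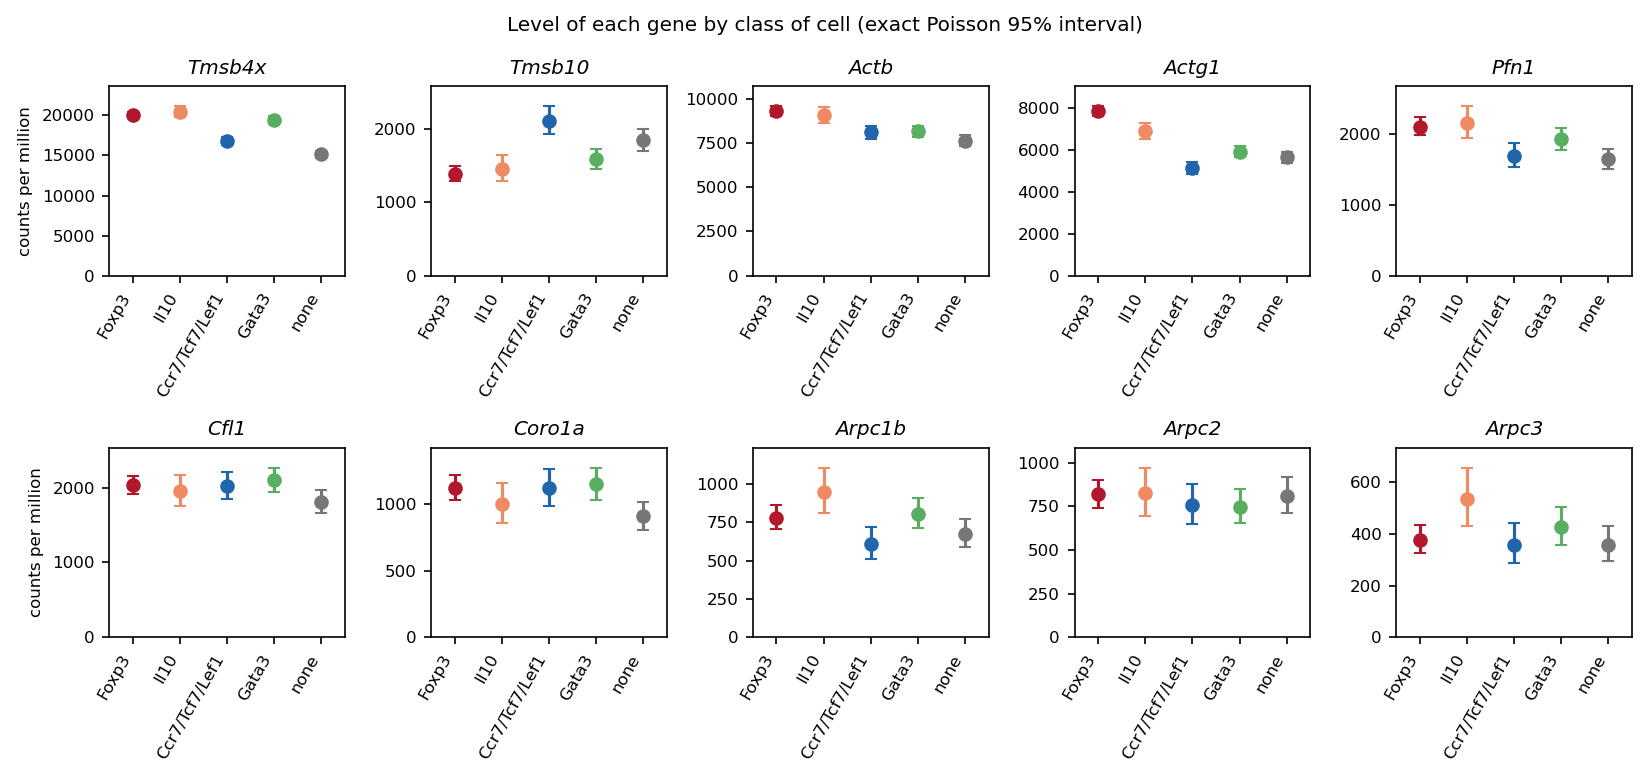
Level of each gene in CPM (vertical axes from 0) in the 5 classes of cells, labelled by the gene that placed the cell, with exact Poisson 95% intervals. Tmsb10 peaks in the Ccr7, Tcf7 or Lef1 class (2114 CPM) and Actg1 in the Foxp3 class (7834 CPM). With classes ordered by level, neighbours have overlapping intervals throughout for each gene except Tmsb4x, Actb and Actg1.

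Single cells of the classes overlapped for each of the 4 actin and thymosin genes. For Actg1, the middle 50% of cells lay between 3769 and 9405 CPM in the Foxp3 class (median 6199) and between 1545 and 6225 CPM in the Ccr7, Tcf7 or Lef1 class (median 3556). For Tmsb10 they lay between 359 and 2135 CPM in the Foxp3 class (median 1189) and between 954 and 2913 CPM in the Ccr7, Tcf7 or Lef1 class (median 1860). The medians differ, and the middle ranges overlap in part. With every cell thinned to 500 counts, Tmsb10 was detected in 46.4% of the Foxp3 class and 63.0% of the Ccr7, Tcf7 or Lef1 class (75.9% and 89.0% unthinned).

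**Figure D4:**
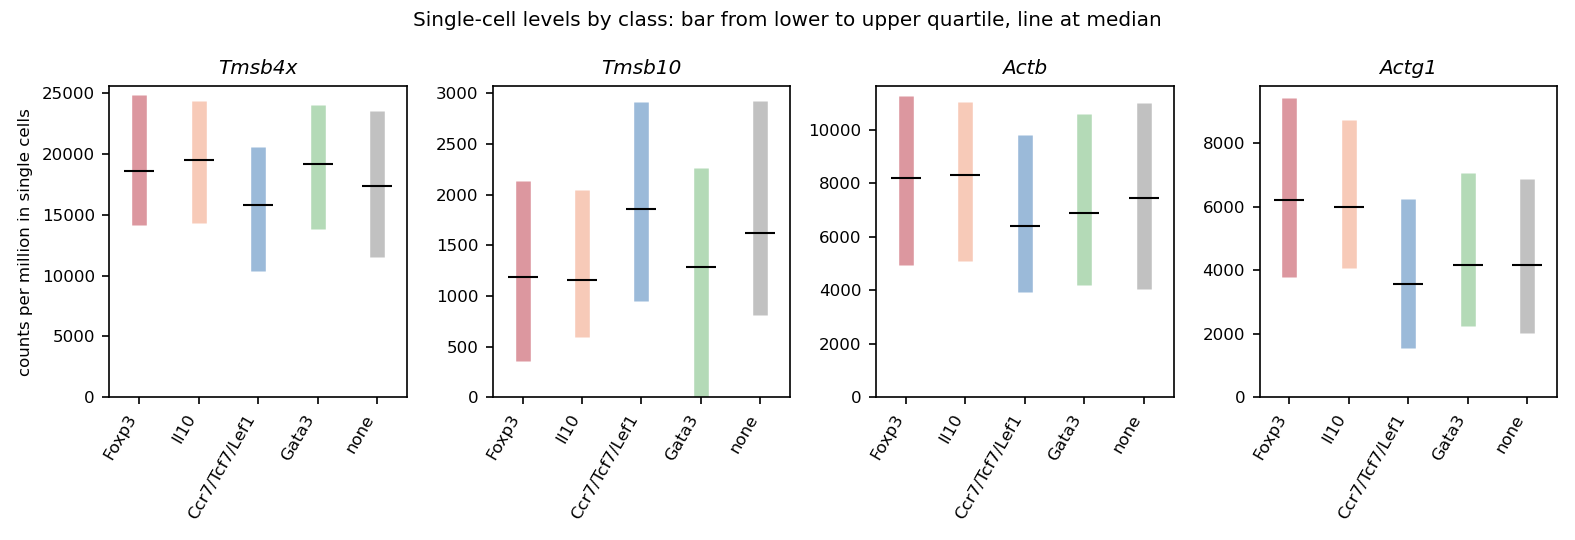
Single-cell CPM of Tmsb4x, Tmsb10, Actb and Actg1 by class (bars from the lower to the upper quartile, black lines at the median). The bars of the Foxp3 and Ccr7, Tcf7 or Lef1 classes overlap for each gene, with medians of 6199 and 3556 CPM for Actg1.

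Holding 1 gate fixed and comparing the other gave the following ratios. The Actg1 ratio for Foxp3 was 0.41 among cells with Gata3, 0.43 among cells without it, 0.46 among cells without Il10 and 0.22 among cells with Il10. It was 0.39 among the 852 cells without Ccr7, Tcf7 and Lef1. The Actg1 ratio for Il10 was 0.06 (-0.03 to 0.15) among cells with Foxp3 and 0.30 (0.21 to 0.39) among cells without it. The Tmsb10 ratio for Il10 was -0.29 (-0.51 to -0.07) among cells with Foxp3 and -0.32 (-0.52 to -0.13) among cells without it. The Tmsb10 ratio for Ccr7, Tcf7 or Lef1 was 0.34 (0.19 to 0.48) among cells without Foxp3 and 0.02 (-0.32 to 0.35) among cells with Foxp3, where only 36 cells held one of the genes. The summed ratio for Gata3 was 0.18 among cells without Foxp3 and 0.02 among cells with it. Whether these ratios differ between the fixed groups was not tested. Cells without both Foxp3 and Gata3 include 6 of the 7 cells with at least 10 epithelial marker counts. Without those 6, the sum in cells with none of the gate genes was 40608 CPM in place of 36503. Their part in the Gata3 ratio of 0.18 was not tested.

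The level of several of the genes also went with the depth of a cell. In 4 equal-sized bins of cells by total counts, the sum of the 10 genes was 37838, 39060, 41083 and 45257 CPM from the shallowest to the deepest. Actg1 measured 4968, 4858, 5662 and 8115 CPM and Actb 7013, 7560, 8210 and 9600 CPM in the same bins, while Tmsb4x stayed between 18144 and 18733.5 CPM and Tmsb10 between 1541 and 1754 CPM. Within the deepest bin, the sum was 50531 CPM in the Foxp3 class, 50876 CPM in the Il10 class and 43535 CPM in the Ccr7, Tcf7 or Lef1 class. It was 32096 CPM in the deepest cells with none of the genes, the bin and class with the lowest Tmsb4x level (10675 CPM). That class holds 6 of the 7 cells with at least 10 epithelial marker counts. These 7 cells had a median depth of 7500 counts, a sum of 12642 CPM for the 10 genes and Tmsb4x at 1448 CPM. Their part in the level of this bin was not tested.

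**Figure D5:**
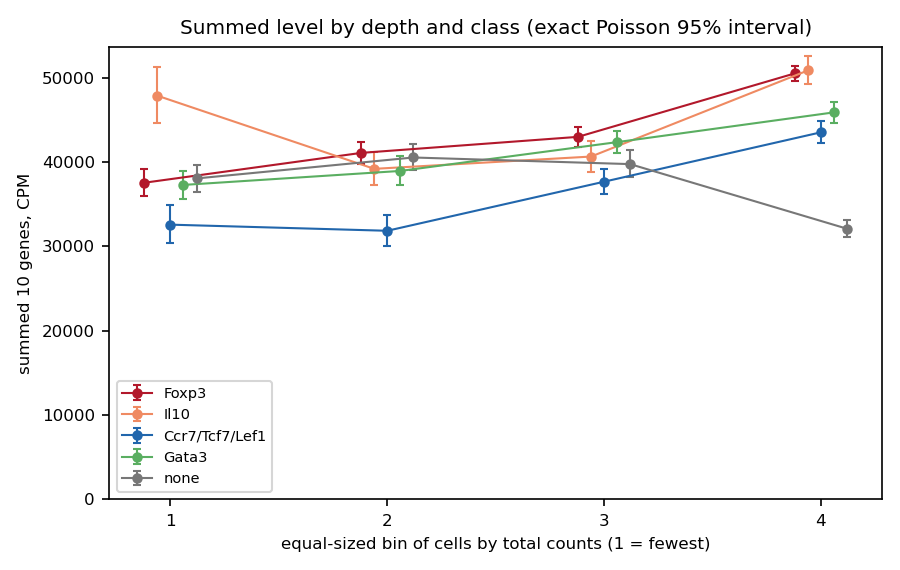
Summed CPM of the 10 genes in 4 equal-sized bins of cells by total counts (1 holds the shallowest cells), by class, with exact Poisson 95% intervals. Levels are higher in the deepest bin than in the others in each class except cells with none of the gate genes, which stand at 32096 CPM there. That class holds 6 of the 7 cells with at least 10 epithelial marker counts.

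The rest of the actin machinery was read from lists of pathway genes, over genes with at least 50 counts. Between the sides of the Foxp3 gate, 23.9% of all such genes were at least 25% higher and 22.2% at least 20% lower, and a list with shares near these is not set apart by them. Of 13 measured nucleation promoters, which switch on Arp2/3 or act as formins, 5 were higher with Foxp3 and 0 were lower, with a median log2 ratio of 0.28 against 0.01 over all genes. Among them were the formin Fmnl1 (255 against 151 CPM, log2 0.75) and the cortactin relative Hcls1 (330 against 240 CPM, log2 0.46). Of the 6 other Arp2/3 subunits, 0 were higher and 1, Actr2, was lower (352 against 449 CPM, log2 -0.35), and Arpc5 measured 443 against 360 CPM (log2 0.30), under the fold. Of 13 measured monomer binding, severing and capping genes, 2 were higher and 2 lower. The filament capping protein gene Capg was the highest of them at 534 against 306 CPM (log2 0.80).

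Gsn, the severing protein gelsolin, measured 66.1 CPM with and 184 CPM without Foxp3 (log2 -1.48), and it was lower on the gated side in all 4 gates. Stromal and epithelial cells also express Gsn, and both marker lists were highest in cells with none of the gate genes (1854 and 8353 CPM); their part in this ratio was not tested. Of 15 measured cross-linkers and filament binders, 3 were higher with Foxp3 and 2 lower, and the intermediate filament gene Vim stood at 2924 against 2006 CPM (log2 0.54). Of 9 myosins and tropomyosins, 3 were higher and 1 lower, with Tpm4 at 414 against 260 CPM (log2 0.67). Of 7 measured genes on the list of SRF, its cofactors and targets, 2 were higher, Zyx (log2 0.62) and Egr1 (log2 0.53), and 2 lower, Srf itself and Fos. Tubulins build the other main filament. Of 8 measured genes on the tubulin list, 0 were higher and 3 lower, with Tuba1b at 503 against 703 CPM (log2 -0.48). The list also holds Stmn1 and Tbca, which are not tubulins themselves.

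Some of these genes stood on the other side in the Ccr7, Tcf7 or Lef1 gate, where 18.7% of all genes were higher by this threshold and 31.6% lower. Capg measured 196 against 429 CPM (log2 -1.13), Tpm4 196 against 340 CPM (log2 -0.80) and Vim 1858 against 2425 CPM (log2 -0.38). Msn, the membrane linker moesin, measured 956 against 763 CPM (log2 0.33). In the Il10 gate, where 24.5% of genes were higher and 25.4% lower, 4 of 8 tubulin list genes were lower and 0 higher. Stmn1, a tubulin binder that is high in dividing cells, measured 39.6 against 232 CPM there (log2 -2.55). Cycling markers summed to 208 CPM in cells with and 492 CPM in cells without Il10, and their part in this ratio was not tested. In the Gata3 gate, where 23.7% of genes were higher and 19% lower, 1 of 6 other Arp2/3 subunits was higher and 0 were lower, the higher one being Actr2 (456 against 364 CPM, log2 0.32).

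Promoter windows were looked up because the actin genes include classical targets of SRF, a transcription factor that binds the CArG box. RefSeq promoter windows (250 bases before to 50 after a start, GRCm38.p6) were found for 9 of the 10 genes, Actb not among them, in 12 windows. A CArG box, searched as its 10-base consensus, which reads the same on both strands, was present in 1 of the 9 genes, Actg1, at 90 to 81 bases upstream. Of all genes with a window, 1.81% (488 of 27025) hold such a match, and of all windows 1.63% (535 of 32851). The surrounding 100 bases lie at chr11:120348536-120348635 on the minus strand, with the box in capitals.
Actg1 promoter: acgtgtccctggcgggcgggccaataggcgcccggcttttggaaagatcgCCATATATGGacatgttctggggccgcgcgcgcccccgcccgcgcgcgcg
The match describes letters in this window and is not a measurement of binding.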

How the data were processed

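Single CD4 T cells sorted from colon lamina propria were profiled by inDrops, with oligo dT priming and linear amplification, and sequenced on a NextSeq500, per the labels' protocols. The authors deposited 1 table of whole-number counts, with barcodes against genes, and TopHat2, SAMtools and mm10 are named, per the submitters' processing notes, without versions or roles. Counting tool, collapse of molecular identifiers, annotation and barcode filter: not given in the sources used here. No column of per-sample values was left unused (0 columns).

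The genes and lists were chosen with earlier results of these data known. Cells were kept with at least 500 counts, 200 genes and under 20% mt- counts; 935 barcodes were left out. A cell was gated by at least 1 count. Scrublet called 9 doublets (0.857%), which were kept in the values reported and left out as an alternative. Pooled CPM were given exact Poisson intervals, ratios exact conditional intervals and shares exact binomial intervals (95%); there were no tests, and the interval code was checked on simulated data. A gene counted as higher from 25% and as lower from 20% (the same ratio), over genes with at least 500 counts, and over genes with at least 50 counts for pathway lists. Named pathway genes are, per list and gate, up to 2 genes with the largest ratio among those with at least 200 counts and an interval that leaves out 0; 1 list is not reported here. Leaving out cells with cycling markers, the class levels without cells of other-type or epithelial markers, and those in which every cell weighs the same were chosen after seeing the data. Symbols were matched to GENCODE vM21 (25033 of 25724). Python 3.11.15, numpy 2.4.6, pandas 2.3.3, scipy 1.17.1, scanpy 1.11.5 and matplotlib 3.10.9 were used.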

Additional observations from a re-analysis of the deposited data

Results flagged for a closer look

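The 935 barcodes outside the cell filter still held the 10 genes, at a summed 16400.3 CPM (15740.5 to 17081), a signal in data that no comparison above uses. Tmsb4x stood at 7276 CPM and Actb at 3434 CPM in them, against 18491.5 and 8534 CPM in the kept cells. The Tmsb10 share of thymosin counts (8.10%, 6.57 to 9.86) and the Actg1 share of actin counts (42.1%, 38.7 to 45.5) had intervals that include the values of the kept cells (8.14% and 43.2%). Whether these counts come from broken cells or free RNA was not tested.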

How the results depend on the processing

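No paired analysis was possible because the barcodes carry no sample. Tmsb10 kept its direction in each of the 4 gates under all 11 alternatives (log2 -0.40 to -0.27 for Foxp3, -0.28 to -0.11 for Gata3, -0.45 to -0.36 for Il10, 0.25 to 0.49 for Ccr7, Tcf7 or Lef1), as did Actg1 (0.20 to 0.45, 0.04 to 0.18, 0.23 to 0.32, -0.38 to -0.19). The summed ratios moved more, in the order Foxp3, Gata3, Il10 and Ccr7, Tcf7 or Lef1. They were 0.14, 0.067, 0.13 and -0.13 with every cell weighing the same; 0.13, 0.11, 0.11 and 0.0085 (a reversal) without ribosomal protein and mitochondrial genes; 0.10, -0.0033 (a reversal), 0.10 and -0.24 with cells thinned to 500 counts and gated on those; 0.13, 0.085, 0.14 and -0.12 within bins of depth; 0.15, 0.037, 0.11 and -0.16 without cells of other-type markers; and 0.16, 0.059, 0.13 and -0.12 without the deepest 1% of cells. They were 0.21 for Foxp3 from 1000 counts per cell, 0.22 for Foxp3 and -0.14 for Ccr7, Tcf7 or Lef1 with a gate of at least 2 counts, and 0.11 for Gata3 and -0.10 for Ccr7, Tcf7 or Lef1 without cycling-marker cells. Single genes also reversed: in thinned cells Actb (-0.035) and Pfn1 (-0.23) for Gata3 and Pfn1 (-0.11) for Il10, and without ribosomal protein and mitochondrial genes Tmsb4x (0.0069) for Ccr7, Tcf7 or Lef1. In thinned cells the Tmsb10 share for Ccr7, Tcf7 or Lef1 differed by 5.05 percentage points, and the Actg1 share by 1.94 for Foxp3 and -0.81 for Ccr7, Tcf7 or Lef1. Genes past the 25% or 20% threshold for Foxp3 numbered 1 in thinned cells (Arpc3, in place of Actg1 and Tmsb10), and 1 within bins of depth and without other-type markers (Actg1); for Gata3 1 from 1000 counts (Coro1a); for Il10 2 in thinned cells (Tmsb10 and Arpc2); for Ccr7, Tcf7 or Lef1 3 in thinned cells (Tmsb4x, Tmsb10, Pfn1), 4 with a gate of at least 2 counts (Tmsb10, Actg1, Arpc1b, Arpc3), 1 within bins of depth and without other-type markers (Actg1 in place of Tmsb10), and 0 with every cell weighing the same, without the deepest 1% and without cycling-marker cells. At 1.5-fold the number was 0 in each of the Foxp3, Il10 and Ccr7, Tcf7 or Lef1 gates. The cause of these changes was not tested. Gates on 1 count miss shallow cells, and the counts per cell of Coro1a and the Arp2/3 subunits limit their ratios.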

Other observations

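Cells with a count of a cycling marker (112 cells; 7 of 8 listed markers are in the table) had a summed level of 44232 CPM for the 10 genes, against 41662 CPM in the other 938 cells. Actg1 measured 7820.5 CPM in them against 6222 CPM, Cfl1 2381 against 1911 CPM and Pfn1 2285 against 1855 CPM. Tmsb4x was lower, at 17748 against 18640.5 CPM, and Tmsb10 had overlapping intervals (1685 and 1629 CPM). The cycling-marker cells were also deeper on average, with 258679 counts in 112 cells against 1290361 counts in 938. From the shallowest to the deepest bin of all cells, Actg1 went from 4968 to 8115 CPM, Cfl1 from 1570 to 2251 and Pfn1 from 1776 to 2149. The part of depth in the levels of cycling-marker cells was not tested.

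Of 190 other genes with at least 1000 counts, the genes whose counts went most with the summed 10 genes over 1050 cells thinned to 500 counts were S100a6 (Spearman correlation 0.28), S100a4 (0.27), Lgals1 (0.21), S100a10 (0.19) and Crip1 (0.17). The most alike gene of Tmsb4x was S100a6 (0.22), of Actb Lgals1 (0.20) and of Actg1 S100a6 (0.19), while that of Tmsb10 was the ribosomal protein gene Rps3 (0.12). The lowest value was that of Rps27rt (-0.20), and thinning to a fixed total makes abundant genes trade against each other. Values this weak in sparse counts are descriptions of this table.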
